A study of Homo sapiens with 5 samples.

Results

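Ribosome biogenesis was followed through 44 genes whose products build ribosomes in the nucleolus, out of 26364 genes listed in the count files. The genes were chosen by what their products do: RNA polymerase I subunits and the activator UBTF, proteins of the small nucleolar ribonucleoproteins, nucleolar chaperones, and assembly factors of the small and large ribosomal subunits. NIP7, MAK16 and TMA16 had a further reason to be listed, since earlier results of the same libraries placed them among the genes furthest above normal food. Their differences are therefore given as a description, with no p-value. RNA was sequenced from subcutaneous tumours of HT-29, a human cell line established from a colon cancer, in female NOD SCID mice aged 5 weeks, which have no T or B cells. All tumours grew from 200000 cells raised in regular medium, and all mice kept their assigned food for 2 weeks. The foods were methionine-free (2 libraries), tryptophan/niacin-free (1 library), free of methionine, tryptophan and niacin together, called the combined omission here (1 library), and normal (1 library). No other treatment or genetic change is named in the labels, and they do not say whether the methionine-free pair came from separate mice, so the p-values reflect the spread of these samples alone, and it may be technical.

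A ribosome begins as a long precursor RNA made in the nucleolus by RNA polymerase I. Small nucleolar ribonucleoproteins of the box C/D class methylate this RNA and those of the H/ACA class convert chosen uridines to pseudouridine, while large sets of assembly factors fold it, cut it and join it to ribosomal proteins. Methionine is the source of S-adenosylmethionine, the methyl donor that the box C/D enzyme fibrillarin uses, and growing tumour cells are known for high output of this pathway.

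Promoters of TMA16, NIP7 and PNO1 are shown as examples of members above normal food in methionine-free tumours. MAK16 and RRS1 also lay further above it than PNO1, and their promoters are not shown here. The sequences come from RefSeq on GRCh38.p14, the gene strand is the plus strand in each case, and each runs from 250 bases before the annotated start. Capitals mark CACGTG, the core E-box letters that MYC family proteins are known to bind, which read the same on both strands, and CCGGAAG or its reverse complement CTTCCGG, letters typical of ETS family binding.
TMA16 (chr4:163494440-163494719): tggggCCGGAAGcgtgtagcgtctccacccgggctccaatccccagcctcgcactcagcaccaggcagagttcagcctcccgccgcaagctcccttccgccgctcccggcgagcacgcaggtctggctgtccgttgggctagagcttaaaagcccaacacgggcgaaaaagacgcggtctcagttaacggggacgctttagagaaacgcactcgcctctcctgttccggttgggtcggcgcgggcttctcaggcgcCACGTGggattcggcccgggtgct
NIP7 (chr16:69339522-69339801): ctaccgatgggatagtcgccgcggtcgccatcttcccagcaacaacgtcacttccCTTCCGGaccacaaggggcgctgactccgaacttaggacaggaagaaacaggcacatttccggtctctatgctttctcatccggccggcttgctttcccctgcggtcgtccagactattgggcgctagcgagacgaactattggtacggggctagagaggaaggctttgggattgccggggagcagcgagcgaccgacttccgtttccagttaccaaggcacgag
PNO1 (chr2:68157638-68157917): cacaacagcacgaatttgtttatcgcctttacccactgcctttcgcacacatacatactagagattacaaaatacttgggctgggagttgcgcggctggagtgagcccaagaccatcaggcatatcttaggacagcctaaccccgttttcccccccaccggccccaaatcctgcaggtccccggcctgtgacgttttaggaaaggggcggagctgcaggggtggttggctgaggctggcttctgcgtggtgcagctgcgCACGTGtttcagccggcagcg
TMA16 carried CCGGAAG at 245 bases before the start and CACGTG at position 7 after it. NIP7 carried CTTCCGG at 195 bases before the start, and PNO1 carried CACGTG at position 10 after it. In windows of 300 bases, 38 of the 44 members had a RefSeq promoter, and 17 of them (44.7%) held CACGTG, against 13.3% of 7709 tested genes with a promoter. CCGGAAG in either direction stood in 16 of the 38 (42.1%), against 24.3% of the tested genes. These matches describe letters in the window and not binding. Members with the E-box letters had a median log2 difference from normal food of 0.22 in methionine-free tumours and members without them 0.26. For the ETS letters the medians were 0.34 with and 0.17 without, and these differed between the methionine-free libraries, at 0.14 with and 0.22 without in the first and 0.51 with and 0.16 without in the second. No test was made of either motif.

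Levels are given as CPM, the counts of a gene scaled to a common library total adjusted by TMM factors. Set per kilobase of transcript, they differed widely among the members. NPM1, an abundant nucleolar chaperone, averaged 629 CPM per kilobase over the 5 libraries. Fibrillarin (FBL) followed at 278, nucleolin (NCL) at 193, and the H/ACA proteins NOP10 and NHP2 at 159 and 128 CPM per kilobase. MAK16 was lowest on this scale at 4.01, just below POLR1A, the largest subunit of RNA polymerase I, at 5.14 CPM per kilobase. The lengths are those of the longest transcript in another annotation (GENCODE v29), so the levels of POLR1A and of other genes with long minor isoforms may be understated.

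The members together had a higher summed level in each library of changed food than in the library of normal food. Their summed level was 5648 and 5758 CPM in the methionine-free libraries, 5449 CPM in the tryptophan/niacin-free library, 5306 CPM in the combined omission and 4958 CPM on normal food. NPM1 and NCL weighed most in the sum, at 1006 and 784 CPM on normal food. NPM1 was above normal food only in the methionine-free libraries (1144 and 1429 CPM). NCL was above it only in the tryptophan/niacin-free library and the combined omission (910 and 848 CPM). All 4 libraries of changed food lay above the single library of normal food, whose own spread is unknown. Most of the members lay above normal food in methionine-free tumours, with 31 of 44 log2 differences above 0 (70.5%) and a median of 0.26, against 50.3% and a median near 0 over the 10005 tested genes. Without NIP7, MAK16 and TMA16 the median was 0.22. In the tryptophan/niacin-free tumour 32 of 44 lay above normal food (72.7%, median 0.13, against 49.3% of all tested genes), and in the combined omission 29 of 44 (65.9%, median 0.21, against 48.5%). These 3 comparisons share the same normal library, so they are not independent of each other. NIP7, MAK16 and TMA16 were listed for lying above that library and add to each of these counts. Without them and corrected for transcript length, 25, 30 and 26 of 41 lay above normal food in the methionine-free, tryptophan/niacin-free and combined tumours. Of the 10005 tested genes 5116, 4996 and 4934 then did. The medians of the 41 were 0.13, 0.13 and 0.17, and the correction is described further on.

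**Figure D1:**
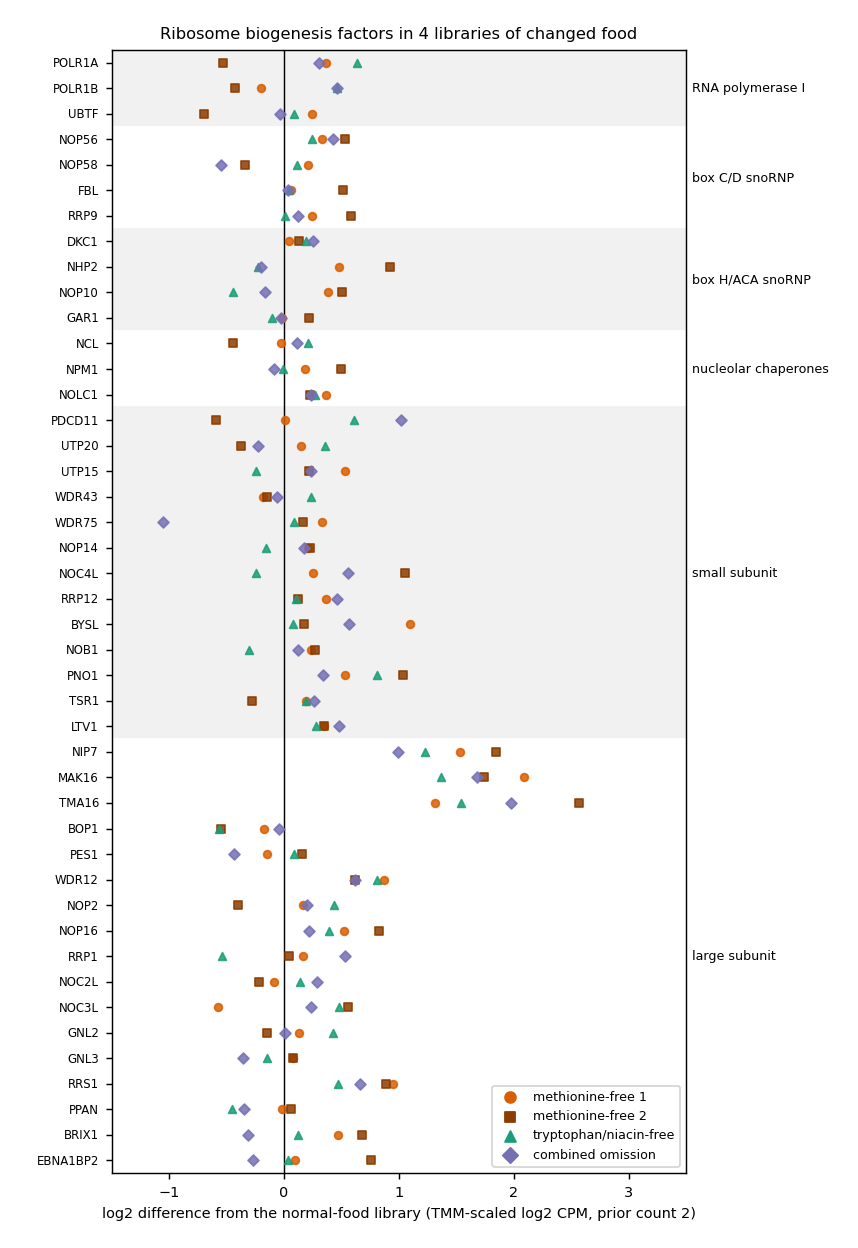
Difference of each of the 44 members from the library of normal food (x axis, log2 of TMM-scaled CPM with a prior count of 2), 1 point for each of the 4 libraries of changed food, grouped by role. NIP7, MAK16 and TMA16 lie above normal food in all 4 libraries of changed food, and BOP1 lies below it in all 4.

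**Figure D2:**
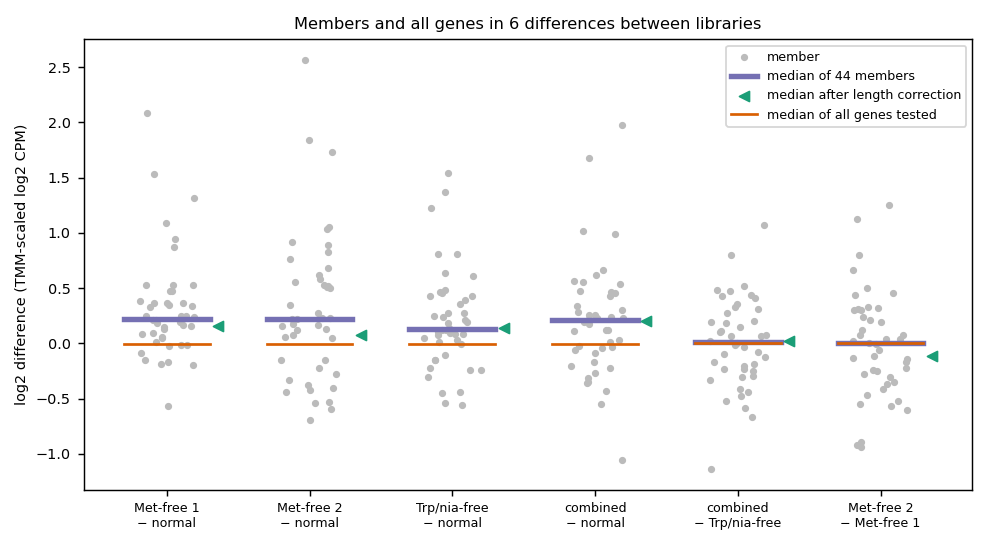
Log2 differences in TMM-scaled CPM between pairs of libraries (y axis), 1 grey point a member, with bars for the median of the 44 members and of all tested genes and a triangle for the members' median after length correction. The members' median is 0.22 for each methionine-free library against normal food, 0.13 for tryptophan/niacin-free and 0.21 for the combined omission, and it is near 0 between the methionine-free replicates. After length correction it is 0.16 and 0.079 for the first and second methionine-free library, and -0.12 between these libraries.

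Read library by library, 27 of 44 members were higher in both methionine-free libraries than on normal food (61.4%), where 34.7% of all tested genes were. Leaving out NIP7, MAK16 and TMA16 the count was 24 of 41 (58.5%). The share of all tested genes fell with transcript length, so 34.7% is not matched to the members. In groups of 11 members from shortest to longest transcripts, 9, 8, 6 and 4 were higher in both libraries. Of all tested genes in those length ranges 60.7%, 45.9%, 36.6% and 19.0% were. The opposite pattern, both libraries below normal food, was found for 5 members (11.4%, against 35.6% of all tested genes): the polymerase subunit POLR1B, NCL, the small-subunit factor WDR43, and the large-subunit factors BOP1 and NOC2L. In all 4 libraries of changed food, 15 members were above normal food (34.1%, against 15% of all tested genes), or 12 of 41 (29.3%) without NIP7, MAK16 and TMA16. They were NOP56, FBL, RRP9, DKC1, NOLC1, RRP12, BYSL, PNO1, LTV1, NIP7, MAK16, TMA16, WDR12, NOP16 and RRS1. By the same length groups 4, 5, 3 and 3 of 11 were above in all 4. Of all tested genes in those ranges 21.7%, 19.6%, 17.5% and 9.11% were. BOP1 was the 1 member below normal food in all 4 (2.27%, against 16.8% of all tested genes). RRP9 was barely above normal food without tryptophan and niacin (37.6 against 37.2 CPM). A correction for transcript length, described further on, put FBL below normal food in both methionine-free libraries (-0.098 and -0.065). BYSL fell below it in the second (-0.096). With the correction NOP10, NOB1, GNL3 and EBNA1BP2 also left the 27 members, and POLR1A and UTP20 joined them. POLR1A was then above normal food in all 4, and GAR1 and PPAN were below it in all 4.

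NIP7, grouped here with the large-subunit factors, was measured at 61.0 and 76.4 CPM in the methionine-free libraries. It had 48.6 CPM in the tryptophan/niacin-free library, 40.8 CPM in the combined omission and 19.1 CPM on normal food. Every library of changed food was above the normal one, and the methionine-free pair was highest. The ratio of its counts in methionine-free to normal tumours was 3.61, with a 95% exact binomial interval of 2.22 to 6.15 that covers counting error only. MAK16, an early factor of large-subunit precursors in yeast, had 25.1 and 19.1 CPM in the methionine-free libraries, 14.1 CPM in the tryptophan/niacin-free library, 18.1 CPM in the combined omission and 3.63 CPM on normal food. The normal value rests on 4.5 deposited counts, and the ratio of methionine-free to normal counts was 6.02, with an interval of 2.09 to 23.7. Rounding before scaling took these 4.5 counts down. It took the 13.5 and 11.5 counts of the methionine-free libraries and the 7.5 of the combined omission up. The levels and ratios of MAK16 use the rounded counts, so rounding widened its differences from normal food. TMA16, which joins large-subunit precursors in yeast, had 8.97 and 25.5 CPM in the methionine-free libraries, 11.0 CPM in the tryptophan/niacin-free library, 15.9 CPM in the combined omission and 1.82 CPM on normal food. With 2 counts on normal food its ratio was 9.72, with an interval of 2.38 to 85.5. The methionine-free libraries were themselves far apart for TMA16, at 5 and 16 counts. Neither MAK16 nor TMA16 reached the filter level of 16.3 CPM in the normal library, so both entered the tests only through libraries of changed food and had to differ from it.

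**Figure D3:**
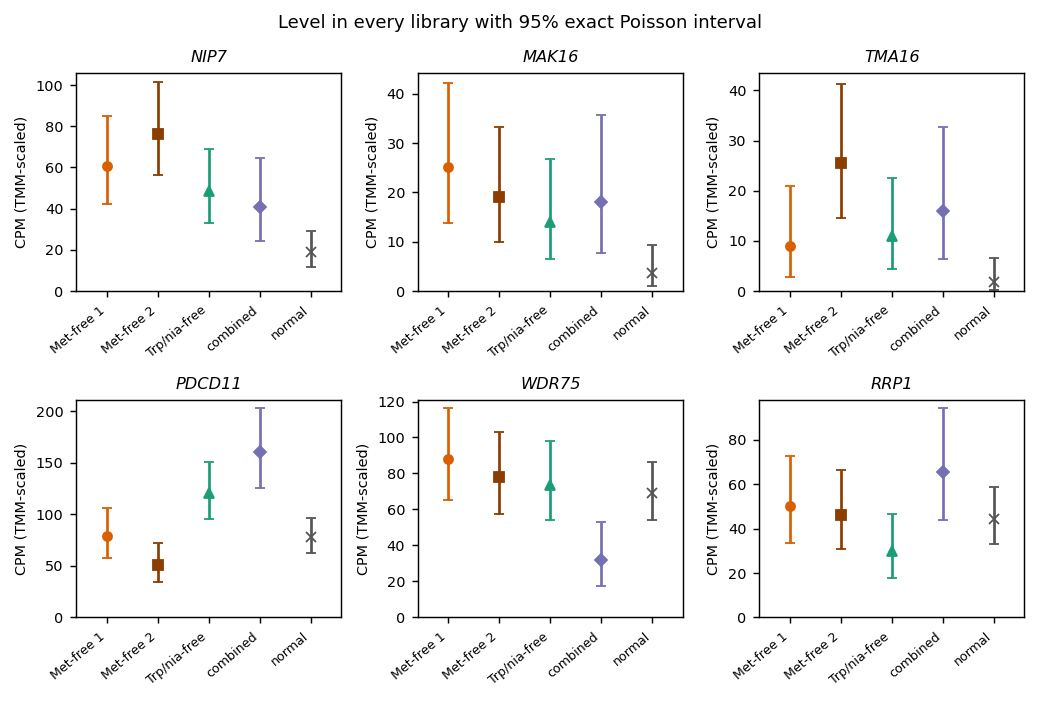
TMM-scaled CPM of 6 members (y axes) in each of the 5 libraries, with bars for the 95% exact Poisson interval of the count, which covers counting error only. NIP7 is lowest on normal food at 19.1 CPM and MAK16 at 3.63 CPM, while PDCD11 reaches 160.9 CPM in the combined omission.

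The polymerase I group did not share a direction in the methionine-free pair. UBTF, which opens ribosomal DNA for transcription, had 157.8 and 81.2 CPM in the methionine-free libraries, 141.0 CPM in the tryptophan/niacin-free library, 129.2 CPM in the combined omission and 132.6 CPM on normal food. One methionine-free library was above normal food and the other below it. POLR1A was at 73.5 and 38.2 CPM in the methionine-free libraries, 89.3 CPM without tryptophan and niacin, 70.3 CPM in the combined omission and 56.3 CPM on normal food. POLR1B, another large subunit, was at 37.7 and 31.8 CPM in the methionine-free libraries, 61.1 CPM without tryptophan and niacin, 61.2 CPM in the combined omission and 43.6 CPM on normal food. Both methionine-free libraries lay below normal food for POLR1B and the other libraries of changed food above it. The median of the 3 genes against normal food was -0.16 in methionine-free tumours (-0.03 after a correction for transcript length, described further on), 0.46 in the tryptophan/niacin-free tumour and 0.30 in the combined omission.

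Box C/D proteins had a median log2 difference of 0.38 from normal food in the methionine-free pair, which was 0.053 with 2 of 4 above 0 after the length correction. FBL, the methyltransferase, had 303.0 and 418.5 CPM in the methionine-free libraries, 300.7 CPM in the tryptophan/niacin-free library, 296.9 CPM in the combined omission and 290.6 CPM on normal food. Only the second methionine-free library stood clear of the others for FBL. The scaffold protein NOP56 had 218.8 and 251.4 CPM in the methionine-free libraries, 205.2 CPM without tryptophan and niacin, 233.4 CPM in the combined omission and 172.5 CPM on normal food. Its partner NOP58 did not follow, with 129.1 and 87.5 CPM in the methionine-free libraries on either side of the 110.8 CPM on normal food. RRP9, a protein of the U3 particle, ranged from 37.6 to 57.3 CPM in the libraries of changed food against 37.2 CPM on normal food.

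The H/ACA proteins had a median of 0.29 in methionine-free tumours, -0.16 in the tryptophan/niacin-free tumour and -0.10 in the combined omission. The first of these turned to -0.042 after the length correction, with 2 of 4 above 0, NHP2 at 0.25 and NOP10 at -0.15. NHP2 was at 129.1 and 176.6 CPM in the methionine-free libraries, 78.3 CPM in the tryptophan/niacin-free library, 79.3 CPM in the combined omission and 91.7 CPM on normal food. NOP10 had the same order, with 107.6 and 117.8 CPM in the methionine-free libraries, 59.5 CPM in the tryptophan/niacin-free library, 72.5 CPM in the combined omission and 81.7 CPM on normal food. For both genes the methionine-free libraries were the highest of the 5. DKC1, the pseudouridine synthase, was at 231.3 and 245.1 CPM in the methionine-free libraries, 255.3 CPM without tryptophan and niacin, 267.4 CPM in the combined omission and 223.4 CPM on normal food, and GAR1 stayed between 23.5 and 30.2 CPM in all 5.

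Among the chaperones, NPM1 had 1144 and 1429 CPM in the methionine-free libraries, 1002 CPM in the tryptophan/niacin-free library, 947.4 CPM in the combined omission and 1006 CPM on normal food. NCL, which binds precursor RNA, had 772.8 and 579.3 CPM in the methionine-free libraries, 909.9 CPM without tryptophan and niacin, 847.7 CPM in the combined omission and 784.5 CPM on normal food. NOLC1, a chaperone of small nucleolar ribonucleoproteins, was at 301.2 and 273.7 CPM in the methionine-free libraries, 281.9 CPM without tryptophan and niacin, 274.2 CPM in the combined omission and 232.4 CPM on normal food.

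The 13 small-subunit factors had medians of 0.26, 0.11 and 0.26 against normal food in the methionine-free, tryptophan/niacin-free and combined tumours. PNO1, which acts late beside the endonuclease NOB1, had 39.4 and 57.3 CPM in the methionine-free libraries, 48.6 CPM in the tryptophan/niacin-free library, 34.0 CPM in the combined omission and 26.3 CPM on normal food. NOB1 itself was at 113.0 and 116.2 CPM in the methionine-free libraries, 76.7 CPM in the tryptophan/niacin-free library and 104.3 CPM in the combined omission, against 95.3 CPM on normal food. LTV1, a factor of late small-subunit precursors, was close together in the libraries of changed food, from 39.2 to 45.3 CPM, against 31.8 CPM on normal food. BYSL had 53.8 and 27.1 CPM in the methionine-free pair, so that 1 of the 2 libraries carried most of its difference from 23.6 CPM on normal food.

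The 17 large-subunit factors had medians of 0.14, 0.39 and 0.22 in the same 3 comparisons. NIP7, MAK16 and TMA16 are among the 17 and were listed for lying above normal food, which raises these medians in advance. Medians of this group without them are not given here, so its lean cannot be set against that of the other roles. RRS1, which brings the 5S ribonucleoprotein into large-subunit precursors, had 44.8 and 43.0 CPM in the methionine-free libraries, 31.3 CPM in the tryptophan/niacin-free library, 36.3 CPM in the combined omission and 21.8 CPM on normal food. The complex of PES1, BOP1 and WDR12 did not share a direction. WDR12 was at 57.4 and 47.7 CPM in the methionine-free libraries, 54.8 CPM without tryptophan and niacin, 47.6 CPM in the combined omission and 30.0 CPM on normal food. BOP1 was at 93.2 and 71.6 CPM in the methionine-free libraries, 70.5 CPM without tryptophan and niacin, 102.0 CPM in the combined omission and 105.3 CPM on normal food. PES1 lay on both sides of its normal level, at 75.3 and 93.9 CPM in the methionine-free libraries against 83.5 CPM. BRIX1 was at 80.7 and 93.9 CPM in the methionine-free libraries and 45.3 CPM in the combined omission, against 57.2 CPM on normal food.

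No member passed the threshold in the tested comparisons. edgeR's quasi-likelihood test with Benjamini-Hochberg adjustment over all 10005 genes called 0 of 44 members in methionine-free against normal tumours, where 0% of all tested genes were called higher and 0.23% lower, and DESeq2 and limma-voom also called 0 members. At an unadjusted p under 0.05 the test gave 1 of the 41 members other than NIP7, MAK16 and TMA16 as higher (RRS1, against 2.47% of all tested genes) and 0 as lower (against 5.21%). RRS1 had a log2 difference of 1.00 (SE 0.499, edgeR adjusted p = 0.639), and PNO1 had 0.88 (SE 0.474, edgeR adjusted p = 0.704). At the other end BOP1 had -0.36 (SE 0.402, edgeR adjusted p = 0.894) and POLR1B -0.33. PDCD11 was next, at -0.28 (SE 0.422, edgeR adjusted p = 0.929), a value that was 0.012 without the second methionine-free library. The fit rests on 1 residual degree of freedom, and the single libraries were assumed to vary like the methionine-free pair, which is not known for them. Its spread was shared fully over genes. A member's own difference between the methionine-free libraries therefore did not set its SE or p-value. The same fit called 23 genes lower over all genes.

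The tryptophan/niacin-free and normal libraries stand alone and were compared by size, with no test. A gene counted as higher or lower if it differed at least 2-fold in scaled log2 CPM and the 95% exact binomial interval of its count ratio left out 1. By this rule 3 members were higher without tryptophan and niacin (against 1.01% of all tested genes), and they were NIP7, MAK16 and TMA16. Nothing can be read from this count, since these genes were listed for lying above normal food, and without them it was 0 of 41. NIP7 had a count ratio of 2.54 (interval 1.41 to 4.65), MAK16 of 3.87 (1.08 to 17.2) and TMA16 of 6.03 (1.15 to 59.5). The ratio of MAK16 was raised by the rounding of its normal count. No member was lower by the rule, against 2.51% of all tested genes. The lowest log2 values were those of BOP1 at -0.56, RRP1 at -0.54 and PPAN at -0.45.

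The combined omission against normal food, each a single library, had 3 members higher (against 0.95% of all tested genes) and 1 lower (against 1.07%). MAK16 and TMA16 were 2 of the 3, and without the genes listed for lying above normal food the count was 1 higher and 1 lower of 41. PDCD11, a large scaffold protein that acts on the precursors of both subunits, had 160.9 CPM in the combined omission, 120.6 CPM without tryptophan and niacin, 78.9 and 50.9 CPM in the methionine-free pair and 78.1 CPM on normal food. The combined omission was thus the highest of the 5 libraries for PDCD11, and its count ratio to normal food was 2.06 (interval 1.48 to 2.85). Its log2 difference of 1.02 was 0.97 without the low-count filter, which is just short of 2-fold. MAK16 and TMA16 had ratios of 4.99 (1.34 to 22.7) and 8.73 (1.66 to 86.2), the first of them raised by the rounding of counts. NIP7 had a ratio of 2.14 (1.07 to 4.22) and a scaled log2 difference of 0.99, just under the rule. WDR75, a small-subunit factor that also acts in polymerase I transcription, was the lower one, with 31.7 CPM in the combined omission, 73.6 CPM without tryptophan and niacin, 87.9 and 78.0 CPM in the methionine-free pair and 69.0 CPM on normal food. Its ratio to normal food was 0.460 (0.240 to 0.820). The next lowest log2 values were those of NOP58 at -0.55 and PES1 at -0.43.

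Set against methionine-free food, the combined omission had 16 members above and 28 below, with a median of -0.14. This lean was gone after the length correction, with 22 of 44 above and a median of -0.0055. Of all tested genes, 4892 of 10005 were then above. edgeR's quasi-likelihood test called 0 of 44 with adjusted p under 0.05 (0.03% of all tested genes were called higher and 0% lower), as did DESeq2 and limma-voom. At an unadjusted p under 0.05, PDCD11 was higher (1 of 44, against 4.62% of all tested genes), and NHP2 and WDR75 were lower (2 of 44, against 2.95%). PDCD11 had a log2 difference of 1.32 (SE 0.423, edgeR adjusted p = 0.322), followed by POLR1B at 0.82 and RRP1 at 0.45. WDR75 had -1.37 (SE 0.526, edgeR adjusted p = 0.512), NHP2 -0.94 (SE 0.460, edgeR adjusted p = 0.644) and BRIX1 -0.94. With the length correction NHP2 shrank to -0.45, while WDR75 had -1.32, BRIX1 -0.75 and PDCD11 1.10.

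Tryptophan/niacin-free against methionine-free food gave a median of -0.21, with 16 members above 0 and 28 below. Corrected for length the median was -0.088, with 20 of 44 above 0, against 4951 of 10005 tested genes. No member was called by edgeR after adjustment (0% of all tested genes were called in either direction), nor by DESeq2 or limma-voom. At an unadjusted p under 0.05, 1 member was higher (PDCD11, against 2.57% of all tested genes) and 2 were lower (NHP2 and NOP10, against 2.34%). PDCD11 had 0.90 (SE 0.422), POLR1B 0.82 and POLR1A 0.69, while NOC4L had -1.08 (SE 0.625), NHP2 -0.96 (SE 0.443) and NOP10 -0.92 (SE 0.446). The edgeR adjusted p of each of these 6 was 0.992. NOP10 and NHP2 have short transcripts, and with the length correction their values shrank to -0.32 and -0.48, while PDCD11 had 0.68. The highest value of the combined omission against the tryptophan/niacin-free library was that of RRP1, a large-subunit factor, at 65.7 against 29.8 CPM, a ratio of 2.21 (interval 1.20 to 4.18). RRP1 was the 1 member higher by the size rule (against 2.31% of all tested genes), and WDR75 the 1 lower, with a ratio of 0.432 (0.220 to 0.798, against 1.73% of all tested genes). Next in size were NOC4L at 0.80 and BOP1 at 0.52 on the log2 scale, and NOP58 at -0.67 and UTP20 at -0.58. The median of the 44 members between these libraries was 0.01.

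Whether the combined omission differed from the sum of the single omissions was tested as an interaction. The members' median was -0.28, with 14 above 0 and 30 below. Corrected for length, 15 of 44 lay above 0 (median -0.14), against 4862 of 10005 tested genes. Without NIP7, MAK16 and TMA16 it was then 15 of 41 (median -0.085). edgeR's adjusted test called 0 of 44 (0.42% of all tested genes were called higher and 0.01% lower), as did DESeq2 and limma-voom. At an unadjusted p under 0.05, 0 of the 41 members other than NIP7, MAK16 and TMA16 were higher (against 4.52% of all tested genes) and 1 was lower, WDR75 (against 1.93%). WDR75 had an interaction of -1.47 (SE 0.716, edgeR adjusted p = 0.741) and PNO1 of -1.39 (edgeR adjusted p = 0.839). RRP1 was highest at 1.03 (edgeR adjusted p = 0.902), followed by BOP1 at 0.90 (edgeR adjusted p = 0.910) and PDCD11 at 0.70 (edgeR adjusted p = 0.943). NIP7 had an interaction of -2.09 (SE 0.755), given as a description. MAK16 had -2.17 (SE 1.24) and TMA16 -2.61 (SE 1.48), and both values rest on the few counts of the normal library. The normal value is part of the interaction, and these 3 genes were listed for lying above it, which favours negative values in advance. Whether their levels departed from the sum of the single omissions cannot be read from these values.

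The methionine-free replicates differed with transcript length. Among the 11 members with the longest transcripts (3991 to 12749 bases), 0 were higher in the second replicate than in the first, with a median of -0.42, against a median of -0.26 over all tested genes of that length. Among the 11 shortest (554 to 1734 bases), 10 were higher, with a median of 0.30, against 0.41 over all tested genes. The same lean ran through the comparison with normal food: the shortest 11 had a median of 0.46 in methionine-free tumours (all tested genes 0.41) and the longest 11 of -0.03 (all tested genes -0.20). In the tryptophan/niacin-free tumour, by contrast, the longest 11 had a median of 0.36 with 10 above normal food, and in the combined omission 0.30 with 9 above. After a correction for length the members' median against normal food was 0.17 in methionine-free tumours (0.16 in the first library and 0.079 in the second), and 0.14 in tryptophan/niacin-free and 0.20 in combined tumours. The 0.17 comes from the edgeR fit and the other 4 values from log2 CPM with a prior count of 2, so it can lie outside those of its libraries. Against methionine-free food it was -0.0055 in the combined omission and -0.088 without tryptophan and niacin, and between the methionine-free replicates it was -0.12. Apart from this correction, the part of transcript length in the members' differences was not tested. By the size rule NOC3L was the 1 member higher in the second replicate (ratio 2.44, interval 1.04 to 6.33, against 2.43% of all tested genes), and 0 were lower (against 4.17%).

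**Figure D4:**
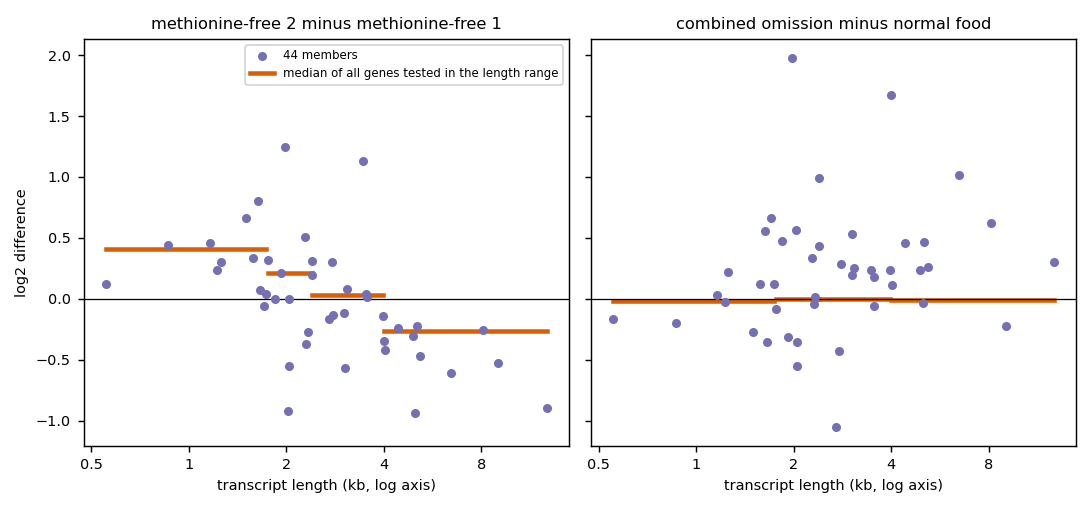
Log2 difference of each member (y axis) against the length of its longest transcript in kilobases (log axis), for the second minus the first methionine-free replicate at the left and the combined omission minus normal food at the right, with bars for the median of all tested genes of each length range. Between the methionine-free replicates the shortest 11 members have a median of 0.30 and the longest 11 of -0.42, while in the combined omission the longest 11 have a median of 0.30.

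Other genes of the pathway were taken from lists of 138 genes, of which 136 were tested. In methionine-free against normal tumours 89 of 136 lay above 0, with a median of 0.19, and edgeR's adjusted test called 0 of them (0% of all tested genes were called higher and 0.23% lower). At an unadjusted p under 0.05, 4 were higher (against 2.47% of all tested genes, a similar share) and 0 lower (against 5.21%). After the length correction the median was 0.12. The subunits of the RNA exosome, which trims precursor RNA, had 13 of 15 above normal food and a median of 0.44, which was 0.10 after the length correction. Among them EXOSC4 was highest at 1.16 (SE 0.573, edgeR adjusted p = 0.639) and EXOSC6 lowest at -0.38. Other small-subunit factors had 27 of 41 above and a median of 0.28, from the kinase RIOK2 at -0.55 to its relative RIOK1 at 1.12 (SE 0.551, edgeR adjusted p = 0.639). Other large-subunit factors had 27 of 45 above and a median of 0.05 (0.10 after the length correction), from URB1 at -0.66 to NOL12 at 1.04, and other polymerase I genes 9 of 12 and 0.25, from TAF1C at -0.56 to TWISTNB at 0.88. MYC, the transcription factor known to drive this pathway, had 194 and 218 CPM in the methionine-free libraries, 237 CPM without tryptophan and niacin, 252 CPM in the combined omission and 198 CPM on normal food. The methionine-free and normal levels of MYC differed by 0.05 (SE 0.433, edgeR adjusted p = 0.992). In the tryptophan/niacin-free tumour 76 of 136 pathway genes lay above normal food, with a median of 0.05, and TWISTNB at 1.07 and NOL12 at 1.01 were higher by the size rule (2 of 136, against 1.01% of all tested genes), while the MYC antagonist MNT was lower at -1.67 (1 of 136, against 2.51%). In the combined omission 74 of 136 lay above normal food, with a median of 0.03. There the size rule gave RIOK1 as higher (1 of 136, against 0.95% of all tested genes), with a ratio of 3.08 (interval 1.55 to 6.22). It gave FCF1, a small-subunit factor, as lower (1 of 136, against 1.07%), with a ratio of 0.416 (0.143 to 0.997), and this call was lost with the length correction.

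The libraries held 433930 to 1088084 counts, so that 1 count stood for 0.919 to 2.30 CPM, and 3 counts, the limit that a count of 0 allows, for 2.76 to 6.91 CPM. Normal food had the deepest library and the combined omission the shallowest, and those 2 libraries also carry titles of a shorter style, which cannot be told apart from their food. All 12 colon epithelium markers had counts above 0 in every library, at a summed 14009 to 17357 CPM, of which KRT8 gave 6423 to 8496 CPM. CDX2 had only 2 counts in the first methionine-free library and CDX1 only 2 in the tryptophan/niacin-free library. Fibroblast markers summed to 15.9 to 20.4 CPM and endothelial markers to at most 3.13 CPM. Of 6 myeloid markers, summing to 2019 to 3719 CPM, PTPRC and CSF1R were at 0 throughout, CD14 and ITGAM were at most 4.77 CPM, CD68 was at 31.7 to 55.4 CPM and LYZ, which colon epithelium can also express, at 1985 to 3671 CPM. Host cells in these tumours are of mouse, while the counts carry human gene symbols, so these markers do not measure how many there were. The part of host cells, myeloid cells among them, in the members' levels was not tested. Muscle markers summed to at most 1.82 CPM except in the tryptophan/niacin-free library, at 65.8 CPM. Nearly all of that came from the myosin genes MYH1, MYH2 and MYH4, at 21.9, 23.5 and 18.8 CPM. The other muscle markers did not follow in that library, with ACTA1 at 1.57 CPM and CKM and TNNT3 at 0. Each library is bulk RNA, so fewer cells making a transcript and less of it per cell cannot be told apart.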

How the data were processed

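Tumour RNA of 5 libraries was used, grouped by the treatment label, with replicate numbers in accession order. The authors deposited expected counts per gene symbol, of which 15.2% to 17.6% of the values above 0 carry decimals. Per the submitters' processing notes, the build was hg19 and the tools were Subread 2.0.0 with featureCounts, TopHat2 2.1.1, SAMtools 0.1.18 and Bowtie2 2.2.8. Per the labels' protocols, the mRNA libraries were stranded. Not given in the sources used here are the annotation, the strand setting, the handling of multi-mapped reads and any removal of mouse reads, so genes with near-identical copies or antisense partners (NPM1 has many pseudogenes) are uncertain. Of the members, 12 carried decimals in some library.

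Expected counts were rounded to whole numbers, 16359 genes with low counts were removed by filterByExpr and 10005 were tested, all 44 members among them. edgeR 4.0.16 (R 4.3.3) fitted 1 mean per diet over the 5 libraries with TMM scaling (factors 0.926 to 1.04), a biological coefficient of variation of 0.207 and Benjamini-Hochberg adjustment at 0.05. The SE was computed from the log2 difference and the F statistic. Single libraries were compared by the size rule, on log2 CPM with a prior count of 2. DESeq2 1.42.0, limma-voom 3.58.1, other scalings, filters, prior counts, a length correction (9878 tested genes have a GENCODE v29 length) and left-out replicates were alternatives. The code was tested on simulated data. Intervals cover counting error only, since reads without molecular identifiers are not independent molecules. The members, the lists and the length correction were chosen with earlier results of these data known. Named were members past the call rule, the 3 highest and 3 lowest of each comparison, NIP7, MAK16 and TMA16, and pathway genes past the rule or at the ends of each list. Members named by role beside these were chosen after their values were seen.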

Additional observations from a re-analysis of the deposited data

How the results depend on the processing

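No paired analysis was possible because the labels carry no replicate numbers shared between foods. The members' median against normal food stayed between 0.17 and 0.26 in methionine-free tumours under the alternatives run. Between combined and tryptophan/niacin-free tumours the median of 0.01 was -0.0194 with total-count scaling and -0.0184 without the low-count filter. PDCD11 in methionine-free against normal tumours ranged from -0.619 to 0.0121 with either methionine-free replicate left out. TMA16 against methionine-free food reversed: in the combined omission to 0.0396 with limma-voom and 0.0527 with length correction. With either methionine-free replicate left out it ranged from -0.669 to 0.817 in the combined omission and from -1.20 to 0.289 in the tryptophan/niacin-free tumour, the positive values being those without the second replicate. The cause was not tested. With a 1.5-fold size rule 7 of 44 members were higher without tryptophan and niacin than on normal food (3.53% of all tested genes), NIP7, MAK16 and TMA16 among them. Under that rule 2 were lower in combined than in tryptophan/niacin-free tumours (3.44%), and 2 were higher (7.18%) and 3 lower (8.44%) in the second methionine-free replicate than in the first. Between those replicates 0 were higher (1.37%) and 3 lower (5.86%) with total-count scaling, and 1 was lower (2.58%) with length correction. Over all genes DESeq2 called 1 gene lower in methionine-free against normal tumours, where edgeR called 23. In the interaction DESeq2 called 2 genes higher, where edgeR called 42. In combined against methionine-free tumours DESeq2 called 0 higher and limma-voom 9, where edgeR called 3. Depth limits low members most: TMA16 rests on 2 counts on normal food.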

Other observations

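Host genes of small nucleolar RNAs, whose introns release the guide RNAs of the modifying particles, had 7 of 12 members above normal food in methionine-free tumours (median 0.13). The direction turned with the length correction, to 2 of 12 and a median of -0.37. In the tryptophan/niacin-free tumour 1 of 12 was above normal food, with a median of -0.37 both without and with the correction. Genes of the MYC network had 6 of 11 above normal food in methionine-free tumours (median 0.05, or 0.18 with the correction), from MNT at -0.82 to MYCL at 0.83.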
